A study of Mus musculus with 4 samples.

Results

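Isolated H2A.Z sites that were held in both genotypes are regions where the Anp32e knockout and the wild type both had an H2A.Z peak and where no other H2A.Z peak of either genotype lay within 100 kb on either side. Overlapping peaks of the 2 genotypes (1 bp or more in common) were joined into 48585 regions. Of these, 29934 contained peaks of both genotypes and are called held here. Among the held regions, 864 had gaps of more than 100 kb on both sides and are called isolated, which is 2.89% of the held regions (95% interval 2.70 to 3.08%). The other 29070 held regions are the comparison. Peak positions chose the members, and the widths described below come from the same peak calls, so the values are descriptions and carry no test.

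H2A.Z ChIP-seq (chromatin immunoprecipitation and sequencing) was done in mouse embryonic fibroblasts on a C57BL/6 background, from knockout (Anp32e-/-) and wild-type (Anp32e+/+) embryos of heterozygous crosses. Per the labels' protocols, cultures were started from the torsos of individual embryos at embryonic day 10.5, without head and internal organs, and were used at passages 5 to 10. The knockout and the wild type each have 1 H2A.Z library with a peak list, of 41912 and 37667 peaks. The 2 input libraries, 1 for each genotype, are not analysed here. Torso cultures are mixtures of cells, the knockout genotype is shared by all cell types in them, and neither the fibroblast identity nor the loss of Anp32e can be read from peak positions.

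H2A.Z replaces the core histone H2A in some nucleosomes, mainly those beside the start sites of genes and at enhancers. It is put into chromatin by remodelling complexes of the SWR1 family, and Anp32e is a chaperone that binds H2A.Z and takes it out again. The question behind the study is what happens to H2A.Z on chromatin when Anp32e is missing. At a site with no neighbour nearby, both edges of the peak can be followed without another called peak beside them.

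Coordinates are on mm9 and count from 1. Lists of positions hold no height and no read count, so depth is unknown, width is not a measure of the amount of H2A.Z, and 1 library for each genotype leaves no replicate check. Called peaks tend to be wider where a library is deeper or its enrichment higher, and the part of depth in the width differences was not tested. Intervals of medians and shares are exact 95% intervals over regions, and the interval of a difference between isolated and other regions combines theirs. They cover counting error only, as if regions were independent, and do not measure how cultures vary.

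In the wild type isolated and other held sites had similar median widths. Regions very wide over both genotypes were less frequent among the isolated ones, which was not resolved with 1 peak in each genotype. The median H2A.Z width of isolated sites was 2094.5 bp in the knockout (95% interval 2030 to 2152 bp), against 1870.5 bp in the wild type (1799 to 1953 bp). The other held regions had medians of 2155 bp in the knockout (2144 to 2165 bp), against 1884 bp in the wild type (1872 to 1896 bp). In the wild type the medians of isolated and other regions differed by -13.5 bp, with an interval of -86 to 69.9 bp that includes 0. In the knockout the isolated median was lower by a little more than its counting error (-60.5 bp, interval -126 to -1.96 bp). Regions wider than 5000 bp over both genotypes numbered 8 among the isolated sites, or 0.926% (0.401 to 1.82%). They numbered 579 among the others, or 1.99% (1.83 to 2.16%), with 1.96% over all held regions. With exactly 1 peak in each genotype the shares were 0.818% of isolated sites (0.329 to 1.68%) and 1.21% of the others (1.09 to 1.35%). These intervals overlap.

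Most isolated sites were wider in the knockout. The knockout width was the larger one at 678 of the 864 sites, or 78.5% (75.6 to 81.2%), the wild-type width was larger at 184, and 2 were equal. Over all held regions the knockout was wider at 79.7%, so the frequency of widening at isolated sites was near the background. The median difference between knockout and wild type was 175.5 bp at isolated sites (157 to 193 bp, quartiles 21 and 369 bp). At the other held regions it was 220 bp (215 to 224 bp, quartiles 42 and 457 bp). The isolated sites therefore showed the same direction about as often, with a smaller step, and the difference between the medians was -44.5 bp (interval -63.4 to -26.3 bp).

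The gap between isolated and other sites was clearest among strongly widened ones. The knockout peak was at least 1.5 times as wide as the wild-type peak at 56 isolated sites, or 6.48% (4.93 to 8.33%), against 3427 of the other held regions, or 11.8% (11.4 to 12.2%). The background over all held regions was 11.6%. At least a 2-fold width was found at 12 isolated sites, or 1.39% (0.720 to 2.41%), and at 3.11% of the others (2.91 to 3.32%), with a background of 3.06%. The 56 strongly widened sites were mostly narrow in the wild type, with a median of 2131 bp in the knockout, against 1146.5 bp in the wild type. Of these, 49 had a wild-type width below the isolated median. The rule that chose them divides by the wild-type width, so low wild-type widths are partly built in. The same count was not made for the other held regions. The reverse, a wild-type peak at least 1.5 times as wide, was rare in both sets, with 5 isolated sites, or 0.579% (0.188 to 1.35%), and 0.994% of the others (0.883 to 1.11%), beside a background of 0.982%. Widths in knockout and wild type lay within a ratio of 0.9 to 1.1 at 403 isolated sites, or 46.6% (43.3 to 50.03%), and at 39.2% of the others (38.6 to 39.7%), beside a background of 39.4%.

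**Figure D1:**
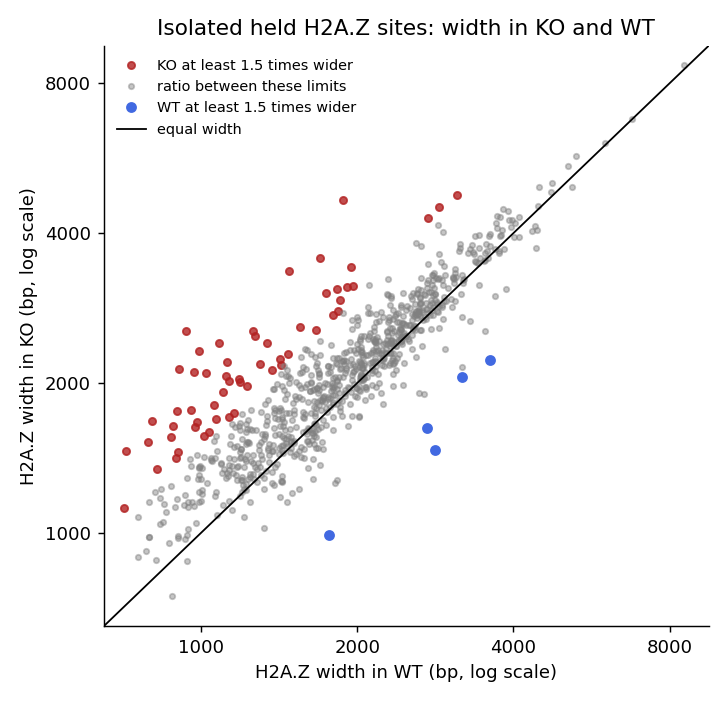
H2A.Z width in bp at each of the 864 isolated held sites, in the knockout (KO, vertical axis) and the wild type (WT, horizontal axis), both on log scales, with 1 point per site and a line of equal width. The 56 sites at least 1.5 times wider in the knockout stand above the line, and 5 sites stand as far below it. Of the 56, 49 lie below the isolated median of the wild-type width, which the ratio rule itself favours. The 3 widest sites lie close to the line.

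Strong widening was already less frequent with spacing at distances below 100 kb. Held regions were grouped by the smaller of their 2 gaps, leaving out the first and last region of each chromosome. The planned classes ended with gaps over 200 kb, and the division of that class at 500 kb was made later. The share at least 1.5 times wider in the knockout was 15.3% at gaps under 1 kb, 12.6% at 1 to 10 kb, 9.18% at 10 to 50 kb and 7.89% at 50 to 100 kb. Among isolated sites it was 7.30% at 100 to 200 kb (37 of 507 sites), 6.32% at 200 to 500 kb (16 of 253) and 2.88% above 500 kb (3 of 104, interval 0.599 to 8.20%). The shares decreased from class to class, but the intervals of the 3 isolated classes and of the 50 to 100 kb class overlap, so the order among them is not resolved. With regions of exactly 1 peak in each genotype, where no peak covers several of the other list, the shares ran from 15.6% under 1 kb to 7.17% at 100 to 200 kb and 2.94% above 500 kb.

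Median differences followed spacing less closely. They were 251.5, 226, 200 and 191.5 bp in the 4 classes up to 100 kb, and 178 bp (156 to 199 bp), 162 bp (120 to 210 bp) and 197 bp (144 to 245 bp) in the 3 isolated classes. Within the isolated sites the intervals of these classes overlap, and the rank correlation of the smaller gap with the width difference was 0.02 over the 864 sites. Over the other held regions it was -0.05, a weak relation that is given as a description, since all sites share the same 2 libraries.

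**Figure D2:**
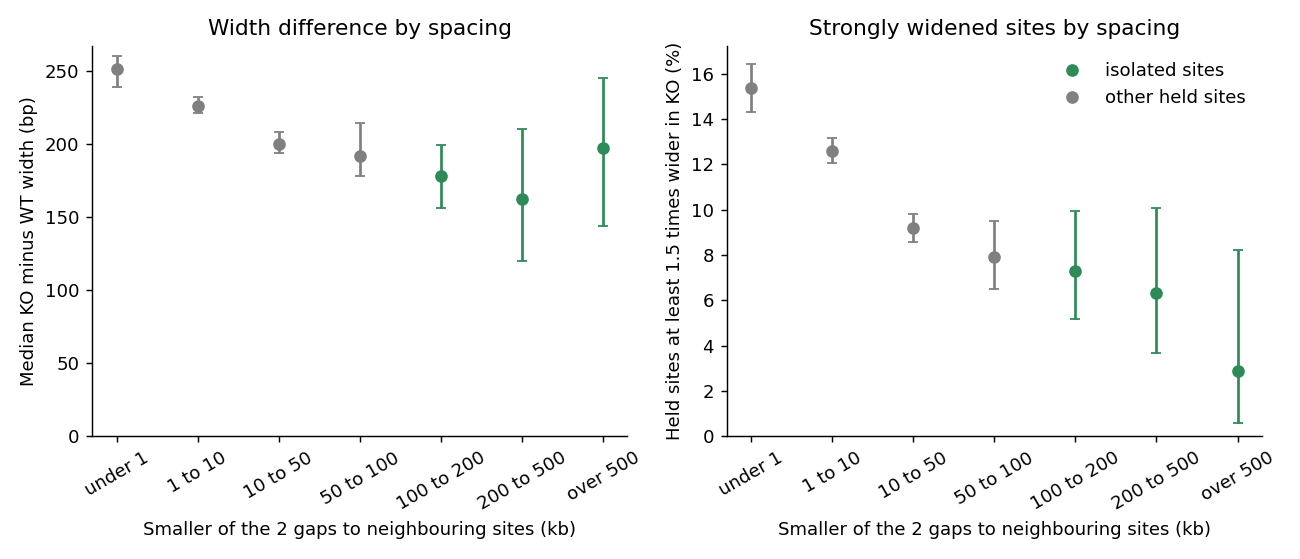
Held regions by the smaller of their 2 gaps to neighbouring regions in kb. The left panel shows the median knockout (KO) minus wild-type (WT) width in bp and the right panel the percentage of regions at least 1.5 times wider in the knockout, with exact 95% intervals as bars, isolated sites in green and other held regions in grey. The percentage is 15.3% in the closest class and 2.88% in the most distant one, whose interval reaches 8.20%. The division at 500 kb was not planned.

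The smaller share of strong widening was also seen among sites of like width. Held regions were divided into 5 width classes of equal number by the mean of their knockout and wild-type widths. From the narrowest class to the widest, 9.74, 9.30, 4.27, 5.71 and 2.53% of isolated sites were at least 1.5 times wider in the knockout. Among the other regions the shares were 12.96, 16.8, 12.6, 8.77 and 7.81%, so the isolated share was lower in each class. The isolated shares rest on 19, 16, 7, 10 and 4 sites, and no intervals were computed for them. The median difference was lower at isolated sites in 4 classes, with isolated minus other values of -71 to -39.5 bp. Among these 4 the intervals of isolated and other regions were apart only in the second widest class (103 to 185 bp against 198 to 218 bp). In the narrowest class, below a mean width of 1465.5 bp, the median difference was 206 bp at 195 isolated sites and 207 bp at the other regions. Of the isolated sites, 22.6% fell in that narrowest class and 18.3% in the widest.

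The knockout reached further out at both edges about as often at isolated sites as over all held regions. The knockout peak did so at 517 isolated sites, or 59.8% (56.5 to 63.1%), beside a background of 59.5% over all held regions. It reached further at 1 edge only at 261 sites, or 30.2% (background 32.4%), and the wild type reached further at both edges at 85 sites, or 9.84% (7.93 to 12.02%), where the background was 8.01%. The median extension of the knockout was 68 bp at the edge of lower coordinates (59 to 84 bp) and 81 bp at the other (70 to 91 bp). At the other held regions the medians were 94 bp (91 to 96 bp) and 96 bp (94 to 99 bp). Both edges of isolated sites thus moved by less, and the intervals of isolated and other regions did not overlap at either edge.

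Centres of the 2 peaks also lay closer together at isolated sites. The centres of the knockout and wild-type peaks lay a median of 66 bp apart (60 to 71.5 bp), against 80.5 bp at the other held regions (79.5 to 82 bp). Centres more than 500 bp apart were found at 13 isolated sites, or 1.505% (0.804 to 2.56%), and at 4.96% of the others (4.71 to 5.21%), with a background of 4.86%. At the median isolated site 90.8% of the knockout bases were also covered in the wild type (89.7 to 91.8%), and at the others 88.6% (88.4 to 88.8%). Where the wild-type peak lay wholly inside the knockout peak, at 59.8% of isolated and 59.4% of other sites, this share restates the widening. The share of wild-type bases covered in the knockout had a median of 100% in both sets. Centre distances and shared bases come from the same edges as the extensions above. The rank correlation of knockout and wild-type width was 0.88 over the 864 isolated sites and 0.80 over the others. These are descriptions across sites of a single pair of libraries, and widths of a site in the 2 lists share its sequence and mappability.

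A single peak in each genotype made up 856 of the 864 isolated sites, or 99.1% (98.2 to 99.6%), compared with 96.7% of the other held regions. At 5 isolated sites 1 knockout peak overlapped 2 wild-type peaks, or 0.579% (0.188 to 1.35%), against 2.52% of the others (2.34 to 2.70%) and 2.46% of all held regions. These 5 sites, named after their values were seen, lay on chromosome 6 (start 127982019), chromosome 11 (start 81425196), chromosome 12 (start 34402052), chromosome 14 (start 88868819) and chromosome X (start 48370313). At the last of them the knockout peak was 3779 bp wide, and the pair of wild-type peaks covered 3324 bp. At 3 sites 2 knockout peaks met 1 wild-type peak, on chromosome 3 (start 45179382), chromosome 5 (start 22053898) and chromosome 13 (start 110229404). Regions with 2 or more knockout peaks made up 0.347% of the isolated sites (0.0717 to 1.01%). They were 0.740% of the others (0.644 to 0.845%) and 0.728% of all held regions. The rule sets the distance to other regions, while peaks bridged within a region remained possible.

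At each of the 5 sites with the largest gain, the knockout peak reached further out at both edges. A choice by gain in width favours this, and the background over all held regions was 59.5%. The largest gain was on chromosome 10, 72558965 to 72563616, with 4652 bp in the knockout, against 1882 bp in the wild type, a difference of 2770 bp. Nearly all of it lay at the lower edge, where the knockout reached 2478 bp further, against 292 bp at the upper edge. The next was on chromosome 15, 32707341 to 32710697, with 3357 bp in the knockout, against 1476 bp in the wild type. Here the extension was spread over both sides, with 825 and 1056 bp. The third, on chromosome 1, 97562042 to 97565610, was 3569 bp wide in the knockout, against 1699 bp in the wild type. The other 2 of the 5 were on chromosome X, 152056321 to 152061096 (4776 bp in the knockout, against 3114 bp in the wild type), and on chromosome 1, 50981827 to 50986344 (4518 bp in the knockout, against 2880 bp in the wild type). By ratio instead, the largest value was 2.71 on chromosome 5, 89704559 to 89707104, a site chosen after its values were seen, with 2546 bp in the knockout, against 938 bp in the wild type.

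The 5 largest losses were smaller than the largest gain, and 4 of them lay mostly at one edge. The largest was on chromosome 6, 141196339 to 141199948, with 2222 bp in the knockout, against 3610 bp in the wild type, and the wild type reached further at both edges, by 969 and 419 bp. On chromosome 4, 125166731 to 125169559, the widths were 1469 bp in the knockout, against 2829 bp in the wild type, and 1170 bp of the difference lay at the upper edge. On chromosome 2, 162484413 to 162487707, they were 2057 bp in the knockout, against 3183 bp in the wild type. At the chromosome 6 and chromosome 4 sites the knockout peak lay inside the wild-type peak, whereas at the chromosome 2 site it reached 112 bp further at the upper edge. On chromosome 18, 21809981 to 21812988, the knockout had 1623 bp and the wild type 2722 bp, with 1385 bp more of wild-type peak at the lower edge. The fifth, on chromosome 3, 53666625 to 53669838, had 2153 bp in the knockout, against 3178 bp in the wild type, a ratio of 0.68 that does not reach the 1.5-fold limit. The remaining site of the 5 that passed that limit was on chromosome 4, 102650218 to 102651984 (992 bp in the knockout, against 1767 bp in the wild type), and was named after its values were seen.

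The 3 widest isolated sites had nearly the same width in both genotypes. The widest was on chromosome 14, 29316647 to 29325398, with 8710 bp in the knockout, against 8534 bp in the wild type. It was followed by chromosome 17, 39979213 to 39986128, with 6782 bp in the knockout, against 6779 bp in the wild type, and by chromosome 3, 45179382 to 45185626, with 6070 bp in the knockout, against 6010 bp in the wild type. Their ratios of knockout to wild-type width were 1.02, 1.00 and 1.01. The other 5 of the 8 widest were 5715 to 5038 bp wide over both genotypes, on chromosomes 19, 14, 14, 4 and 6. Their ratios were 1.08, 1.07, 0.95, 1.11 and 1.06, beside a median ratio of 1.09 over all isolated sites. None of the 8 reached the 1.5-fold limit in either direction, and 7 were wider in the knockout. Sequence repeats and mappability were not checked at these sites.

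The 4 narrowest sites were 879 to 920 bp wide over both genotypes. They lay on chromosome 17, starting at 90487246 (746 bp in the knockout, against 879 bp in the wild type), chromosome 7 at 67535745 (knockout 884 bp, wild type 818 bp), chromosome 17 at 16313734 (knockout 894 bp, wild type 758 bp) and chromosome 4 at 19368531 (knockout 920 bp, wild type 785 bp). The first of them was the only one of the 4 that was narrower in the knockout. A site on chromosome 7, 141223367 to 141225544, chosen after its values were seen, counted as held through an overlap of just 22 bp, with a knockout peak of 1210 bp and a wild-type peak of 990 bp lying side by side.

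Most isolated sites were not far beyond the limit. The smaller gap had a median of 172.9 kb (quartiles 123.3 and 295.0 kb). Gaps of more than 200 kb on both sides were found at 357 sites, more than 0.5 Mb at 104, more than 1 Mb at 28 and more than 2 Mb at 4. The 2 sites just inside the limit had smaller gaps of 100018 bp (chromosome 3, starting at 132345920) and 100026 bp (chromosome 2, starting at 19474572). Their widths were 2124 bp in the knockout, against 1900 bp in the wild type, and 1853 bp in the knockout, against 1693 bp in the wild type. The 2 just outside had gaps of 99785 bp (chromosome X, starting at 156939083) and 99746 bp (chromosome 19, starting at 28084012), with widths of 2539 bp in the knockout, against 2173 bp in the wild type, and 3596 bp in the knockout, against 2987 bp in the wild type.

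The most isolated sites lay in long stretches with no H2A.Z peak of either genotype. The farthest was on chromosome X, 126283385 to 126285969, with 6.06 Mb below and 3.92 Mb above it to the nearest peaks, and it was 2585 bp wide in the knockout, against 2333 bp in the wild type. On chromosome 8, 101939041 to 101940593, the gaps were 3.46 and 3.14 Mb and the widths 1426 bp in the knockout, against 1512 bp in the wild type. The site on chromosome 14, 84842217 to 84847427, with gaps of 4.67 and 2.31 Mb, was also among the 8 widest, at 4940 bp in the knockout, against 5196 bp in the wild type. The fourth, on chromosome 15, 16657974 to 16658957, had 984 bp in the knockout, against 795 bp in the wild type, and the fifth, on chromosome X, 63905300 to 63907466, had 2167 bp in the knockout, against 1447 bp in the wild type. Even these 5 ranged widely in width, and 3 of them were wider in the knockout.

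**Figure D3:**
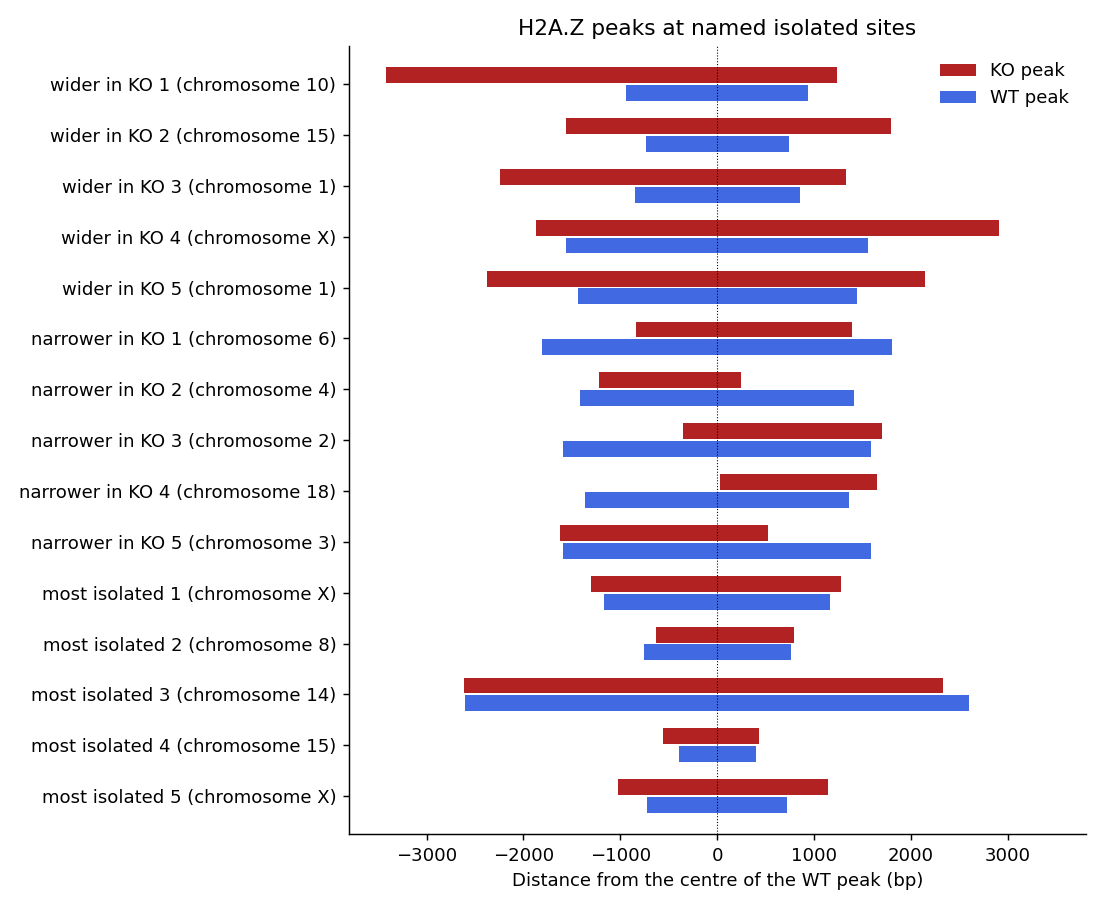
Extent of the knockout (KO, red) and wild-type (WT, blue) H2A.Z peak at 15 named isolated sites, as distance in bp from the centre of the wild-type peak: the 5 with the largest gain in knockout width, the 5 with the largest loss and the 5 with the largest smaller gap. The gain on chromosome 10 extends 2478 bp beyond the wild-type peak at one edge, while the 5 most isolated sites differ by -256 to 720 bp in width.

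The neighbours of isolated sites resembled those of other held regions. Of the 1728 regions flanking the isolated sites, counted once for each side, 63.0% were held in both genotypes (60.6 to 65.2%), 23.2% were knockout-only and 13.8% wild-type-only. For the other held regions the shares were 64.3, 22.1 and 13.6%. At 174 isolated sites (20.1%) both flanking regions were isolated as well, at 375 sites 1 was, and at 315 neither was. Measured within each list alone, the median distance to the nearest other peak was 182.6 kb in the knockout list and 195.1 kb in the wild-type list.

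The share of isolated regions held in both genotypes varied with distance. Of all 1465 isolated regions, 59.0% were held in both genotypes (56.4 to 61.5%), against 61.7% of the other regions (61.3 to 62.1%) and 61.6% of all regions. The difference was -2.72 percentage points, with an interval of -5.32 to -0.147. Among isolated regions the held share was 54.9% at smaller gaps of 100 to 200 kb (51.7 to 58.2%), 63.4% at 200 to 500 kb (58.5 to 68.1%) and 72.7% above 500 kb (64.7 to 79.8%). The first of these intervals lies below that of the other regions and the last lies above it, so the pooled value averages departures in opposite directions. The division at 500 kb was not planned. In the planned class of gaps over 200 kb the held share was 65.9% (61.7 to 69.9%), an interval that overlaps that of the other regions. In the 4 classes up to 100 kb the held share was 60.7, 61.6, 62.5 and 60.6%, with no such order.

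The X chromosome carried more isolated sites than any autosome. It had 101 of the 864, or 11.7% of them, and 1.69% of the other held regions. Of the X chromosome's 593 held regions 17.03% were isolated (14.1 to 20.3%), compared with 2.60% on the autosomes (2.42 to 2.79%). Widely spaced peaks on a chromosome raise this share by the rule itself, so it describes spacing and no further trait of X. On the autosomes the numbers ran from 11 isolated sites on chromosome 19 to 63 on chromosomes 3 and 6. Of all isolated regions on X, 77.1% were held in both genotypes (68.9 to 84.0%), and of those on autosomes 57.2% (54.5 to 59.9%). Among other regions the held share was likewise higher on X, 72.1% against 61.5% on autosomes.

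Width differences at isolated and other X sites had overlapping intervals. The median difference was 285 bp at isolated X sites (183 to 360 bp) and 263 bp at other X sites (239 to 296 bp), and 7.92% of isolated and 7.72% of other X sites were at least 1.5 times wider in the knockout. On the autosomes the medians were 162 bp at isolated sites (141 to 187 bp) and 219 bp at the others (214 to 223 bp), and the shares 6.29% at isolated sites and 11.9% at the others. The lower values at isolated sites were therefore measured on the autosomes. Whether X and the autosomes differ in this was not tested, and with 8 strongly widened isolated sites on X the interval of 3.48 to 15.01% is wide.

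Differences between chromosomes appeared at isolated sites as at the others. The median difference of isolated sites was above 0 on all 20 chromosomes, and its interval lay above 0 on 16. It was lowest on chromosome 4, at 21 bp over 53 sites (-83 to 97 bp), where the other held regions had -34 bp (-48 to -20 bp). It was highest on chromosome 15, at 408.5 bp over 32 sites (189 to 661 bp), followed by chromosome 19 (364 bp, 11 sites), chromosome 16 (347.5 bp, 22 sites) and chromosome 1 (324.5 bp, 58 sites). The intervals of these 4 overlap, so their order is not resolved. Over the 20 chromosomes the medians of isolated and other regions correlated with r = 0.78 (Pearson) and rho = 0.77 (Spearman). Without chromosomes 4 and 16, the farthest from the middle, r was 0.71. All chromosomes come from the same pair of libraries and are not replicates.

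Set against the other held regions of the same chromosome, the median difference of isolated sites was lower on 12 chromosomes and higher on 8. Intervals were apart on 3, all with lower values at isolated sites. These were chromosome 9 (107.5 bp at isolated sites and 266.5 bp at the others), chromosome 10 (127 bp at isolated sites and 280 bp at the others) and chromosome 13 (272 bp at isolated sites and 371 bp at the others). The share at least 1.5 times wider in the knockout was lower at isolated sites on 17 of the 20 chromosomes and higher on chromosomes 4, 8 and X. On chromosome 2 it was 1.72% at isolated sites (1 of 58) and 9.55% at the others. On chromosome 3 it was 1.59% at isolated sites (1 of 63) and 12.4% at the others. Chromosomes 12 and 14 had no such isolated site, among 38 and 45 isolated sites, where the others had low shares of 3.26 and 5.05%. Weighting the other held regions to the chromosomes of the isolated ones, an alternative added after seeing the data, left their share of strongly widened regions at 10.99% and their median difference at 219 bp.

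**Figure D4:**
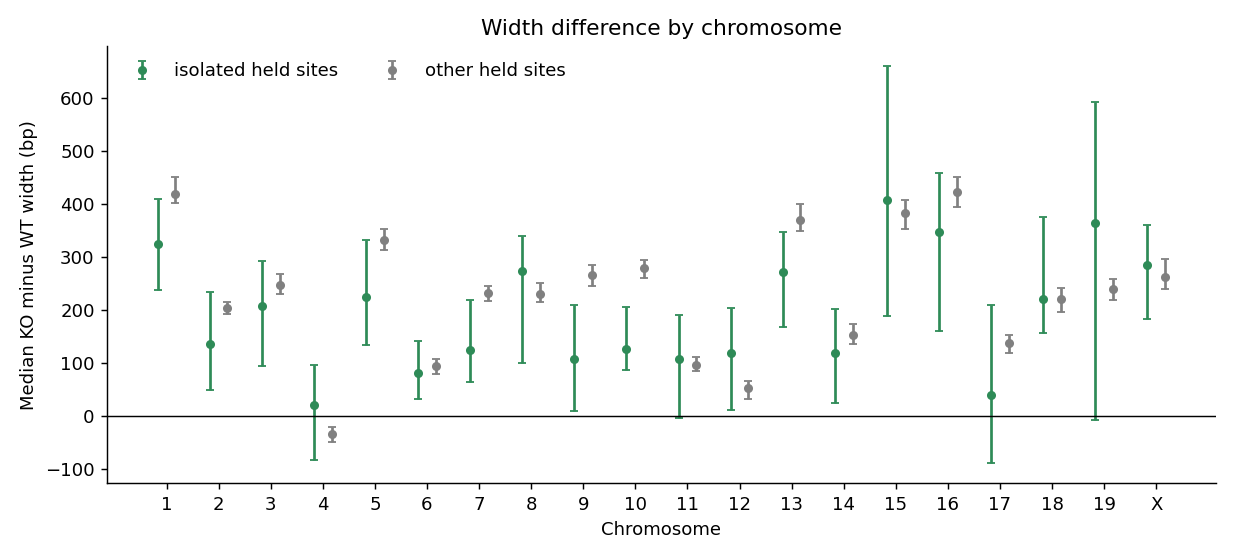
Median knockout (KO) minus wild-type (WT) width in bp on each chromosome, for isolated held sites (green) and other held regions (grey), with exact 95% intervals as bars. Isolated medians are above 0 on all 20 chromosomes, are lowest on chromosome 4, and have the wide intervals of small numbers (11 to 101 sites per chromosome).

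Isolated sites were spread over most of the genome, with a few concentrations. Of 275 windows of 10 Mb with a held region, 249 had at least 1 isolated site, 60 had 5 or more and 7 had 10 or more. The window on chromosome X from 150000001 to 160000000 held the most, with 14 isolated sites among 33 held regions. It was followed by 13 of 43 on chromosome X from 100000001 and 12 of 63 on chromosome 12 from 30000001. On chromosome 6 the window from 10000001 to 20000000 had 9 isolated sites among only 22 held regions. Windows poor in peaks favour isolated sites by the rule itself.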

How the data were processed

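Data were 2 peak lists, 1 for each H2A.Z library. The deposited lists, saved from Galaxy per the file headers, give chromosome, start and end in 3 columns, with no score or count. The submitters' processing notes name mm9, MACS 1.4.2, HOMER, Bowtie 0.12.8 and CASAVA 1.8.2. What each tool did, its settings, and the peak threshold are not given in the sources used. Peak positions were read as BED intervals, as the authors deposited them.

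Peaks sharing at least 1 bp were joined over both lists. Gaps are counted edge to edge to the next joined region of either genotype, and the first and last region of a chromosome were never isolated. The width of a genotype in a region is the number of bases its peaks cover. Shares carry Clopper-Pearson intervals, medians carry order-statistic intervals, and differences between them carry square-and-add intervals. Computation used Python 3.11.15, numpy 2.4.6, pandas 2.3.3 and scipy 1.17.1, with plots in matplotlib 3.10.9, and was tested on simulated data.

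Named sites were the 8 widest, the 4 narrowest, the 5 largest gains and losses, the 5 largest smaller gaps and 2 on each side of the limit, with others marked as chosen later. Members and comparisons were chosen with earlier results of these data known. Alternatives changed the gap limit, neighbours, overlap rule, joining, chromosomes and pooling. Gene names and sequences were not used here, because the tables at hand are on GRCm38 and the peaks on mm9.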

Additional observations from a re-analysis of the deposited data

How the results depend on the processing

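No called difference reversed direction under any alternative run. Of 130 alternative values, 123 stayed within the 95% interval of the reported value or, for counts, within 1.5 times it, and 7 did not. By their construction, other limits changed the number of isolated held sites, to 2182 with gaps over 50 kb, to 357 with gaps over 200 kb and to 1777 when only held regions counted as neighbours. The held share among isolated regions was 65.9% with gaps over 200 kb. That setting pools the classes of 200 to 500 kb and above 500 kb, with held shares of 63.4 and 72.7%. When only held regions counted as neighbours, which also changes which regions are isolated, the held share was 53.1%, and the cause was not tested. The median difference of the other held regions was 225 bp with peaks within 500 bp joined, and the cause was not tested. It was 237 bp without chromosome 4, whose other held regions had a median of -34 bp. The share of isolated sites at least 1.5 times wider in the knockout lay between 5.32 and 7.60% over the alternatives, and the isolated minus other median difference between -58 and -35 bp. The lower knockout width of isolated sites is less firm: its interval includes 0 with 1 peak of each genotype (-42.5 bp, -109 to 19.98 bp), with gaps over 200 kb (-47 bp, -113 to 34.7 bp) and without chromosomes 1, 4, 12, 13 and 16 (-33 bp, -109 to 21.3 bp). The similar wild-type width of isolated and other sites also depends on the setting. Isolated minus other was -60 bp (-118 to -3.91 bp, without 0) when only held regions counted as neighbours. It was 18.5 bp (-55.2 to 113 bp) without chromosomes 1, 4, 12, 13 and 16. A stricter threshold was not run, since no peak has a score. No paired analysis was possible because there is 1 library of each genotype. Comparisons of width are limited by the unknown depth.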

Other observations

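Isolated regions found in one genotype were narrower than the other one-genotype regions. The 379 isolated regions of the knockout alone had a median width of 1298 bp (1265 to 1332 bp), and the 11380 other knockout-only regions 1430 bp (1423 to 1437 bp). The 222 isolated regions of the wild type alone had a median of 1024.5 bp (993 to 1062 bp), and the 6670 other wild-type-only regions 1134 bp (1128 to 1140 bp). Regions of the knockout alone outnumbered those of the wild type alone 1.71 times among isolated regions (1.44 to 2.02) and 1.71 times among all others (1.66 to 1.76).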
